A study of Mus musculus with 4 samples.

Results

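Deaf1 peaks inside gene bodies are the sites of Deaf1 enrichment whose highest point, the summit, lay within the span of a protein-coding gene and more than 1 kb from every protein-coding gene start or end. They were taken from the peak list of ChIP replicate 2 on chromosomes 1 to 19 and X, leaving out a dense block of peaks on chromosome 10. The rule found 583 gene-body peaks, 19.8% of the 2950 replicate 2 peaks on these chromosomes outside the block and part of 3126 in the whole list. Another 2128 peaks had their summit within 1 kb of a gene end and 239 lay between genes. The study mapped Deaf1 by chromatin immunoprecipitation and sequencing (ChIP-seq) in C2C12, a mouse myoblast cell line, with 2 ChIP libraries made with an antibody to Deaf1 and 2 input libraries without antibody. The cells were grown in serum-containing medium with no treatment or genetic change named, so there was 1 condition and no change in occupancy to measure. Nothing in the labels says that the replicates came from separate cultures, so the spread between them may be technical. The labels describe formaldehyde fixation and also use the term for ChIP without fixation, and this conflict could not be settled.

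Deaf1 is a transcription factor that binds DNA through its SAND domain, a fold that reads short sites built around unmethylated CpG dinucleotides, with the letters TTCG as a described core. It can act as an activator or a repressor and is best known from neurons, immune cells and, as in this study's title, muscle regeneration and autophagy. A factor's peak inside a gene can sit at an internal promoter, where a shorter transcript of the gene begins, at an enhancer within an intron, or in chromatin close to another bound site. Exons and introns were not annotated in the tables used here, so the peaks are described by their distance to gene ends and to annotated transcript starts.

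Many gene-body peaks lay at a transcript start inside the gene. RefSeq's table of transcript starts on GRCm38.p6 lists 32619 starts on these chromosomes, with several for some genes, and covered the host gene of 449 gene-body peaks. A start lay within 1 kb of the summit at 231 gene-body peaks (39.6% of 583), where 67.9% of all 2950 peaks had one. Of these 231, 210 were at a start of the host gene itself and 21 at a start of a non-coding gene inside or across it. They sat close to it: 171 were within 250 bp of the start and 137 within 100 bp, with a median position 19 bp upstream (quartiles −56.5 and 81.5 bp). The remaining 352 are called peaks without a listed start below. For 129 of them the table holds no start of the host gene, so a start of that gene at the summit cannot be told from its absence, and the other 223 have a host gene in the table.

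The sequences in front of the strongest of these internal starts are shown because the same short word recurs in them. The line of each gene gives the 100 bases before the start, 5′ to 3′ on the gene's strand (GRCm38.p6, RefSeq), at the 8 genes with the largest mean fold enrichment among peaks that overlap a replicate 1 peak and have their summit in those 100 bases of a start of the host gene. Capitals mark CGGAA or its reverse complement TTCCG.
Eif4g3, chr4:137993355-137993454, plus strand: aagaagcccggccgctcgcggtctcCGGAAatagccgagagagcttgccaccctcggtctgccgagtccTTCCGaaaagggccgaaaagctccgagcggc
Psma6, chr12:55398725-55398824, plus strand: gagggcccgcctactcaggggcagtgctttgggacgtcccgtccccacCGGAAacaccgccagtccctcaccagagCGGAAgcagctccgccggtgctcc
Trp53rkb, chr2:166793667-166793766, plus strand: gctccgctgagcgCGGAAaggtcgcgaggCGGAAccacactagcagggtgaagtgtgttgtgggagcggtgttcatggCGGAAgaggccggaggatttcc
Cops7a, chr6:124965513-124965612, minus strand: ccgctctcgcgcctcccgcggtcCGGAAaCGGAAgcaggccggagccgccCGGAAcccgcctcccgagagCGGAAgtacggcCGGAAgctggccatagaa
Vps25, chr11:101253607-101253706, plus strand: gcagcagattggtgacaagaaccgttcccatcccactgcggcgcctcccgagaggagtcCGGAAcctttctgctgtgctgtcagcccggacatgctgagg
Exoc3, chr13:74208701-74208800, minus strand: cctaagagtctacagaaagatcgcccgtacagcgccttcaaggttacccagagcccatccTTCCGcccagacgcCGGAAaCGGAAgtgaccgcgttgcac
Psmf1, chr2:151741311-151741410, minus strand: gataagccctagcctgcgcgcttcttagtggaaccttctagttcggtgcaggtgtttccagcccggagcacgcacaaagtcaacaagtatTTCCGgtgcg
Psmc2, chr5:21786647-21786746, plus strand: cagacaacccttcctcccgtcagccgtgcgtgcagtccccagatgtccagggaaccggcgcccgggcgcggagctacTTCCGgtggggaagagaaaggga

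All 8 stretches hold CGGAA or TTCCG, from 1 copy at Vps25, Psmf1 and Psmc2 to 5 copies at Cops7a. The longer word CCGGAAG, introduced below, occurs in these stretches only at Cops7a and Psmc2, with 1 copy each. Over the longer start window defined below it also occurs at Psma6, Vps25 and Exoc3. No share of CGGAA is given for stretches of this length at other starts, and its shares over whole start windows follow below. TTCG or its reverse complement CGAA occurs in the printed stretches at Eif4g3, with 2 copies, and at Psmf1, with 1. The genes encode the translation initiation scaffold Eif4g3, the proteasome subunits Psma6 and Psmc2 and the proteasome regulator Psmf1, the COP9 signalosome subunit Cops7a, the ESCRT-II sorting subunit Vps25, the exocyst subunit Exoc3 and the p53-regulating kinase homologue Trp53rkb.

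Word shares were counted over the whole 300-base window of a start, from 250 bases before to 50 after it. A window held the summit of 149 gene-body peaks. The word was chosen after seeing the data, on other sites: in the 1810 windows with a gene-end peak, words were ranked by how much more often they occurred there than in 12202 windows without a peak that hold at least 10 CpG. The top word of 5 bases was CGGAA and that of 7 bases was CCGGAAG, each read on both strands, and every copy of the longer word contains the shorter. CCGGAAG is the letter pattern of the site known for ETS-family factors, which is stated as background. A match is a description of the letters and does not show which protein was bound.

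CCGGAAG occurred at 79 of the 149 gene-body peaks (53.0%, 95% Wilson interval 45.0 to 60.9), against 8.92% of all 32619 windows. In windows without a peak but with at least 10 CpG, which had the same median of 22 CpG as the gene-body peaks, it occurred in 10.6%. Windows with a gene-end peak, on which the word was chosen, had it in 57.8%. The shorter CGGAA was held by 127 of the 149 (85.2%) with a median of 2 copies, and 44 (29.5%) had 3 or more. Of all windows 30.1% held CGGAA, and 3.62% had 3 or more copies. In windows without a peak but with at least 10 CpG, the shares were 43.9% and 3.17%. Intervals cover counting error only, and windows of neighbouring starts share sequence.

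The word lay close to the summit. Among the 79 gene-body peaks with CCGGAAG in the window, the nearest copy was centred a median of 15 bp from the replicate 2 summit, and at 57 of them (72.2%) within 25 bp. The copy nearest the annotated start was a median of 22 bp from that start. Closeness to the summit and closeness to the start cannot be told apart here. The replicate 1 summits of the 58 shared ones had a median of 12 bp, with 39 (67.2%) within 25 bp. These 58 were taken for their overlap with a replicate 1 peak, so the 2 distances are not independent. Gene-end peaks had a median of 18 bp and 64.7% within 25 bp.

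**Figure D1:**
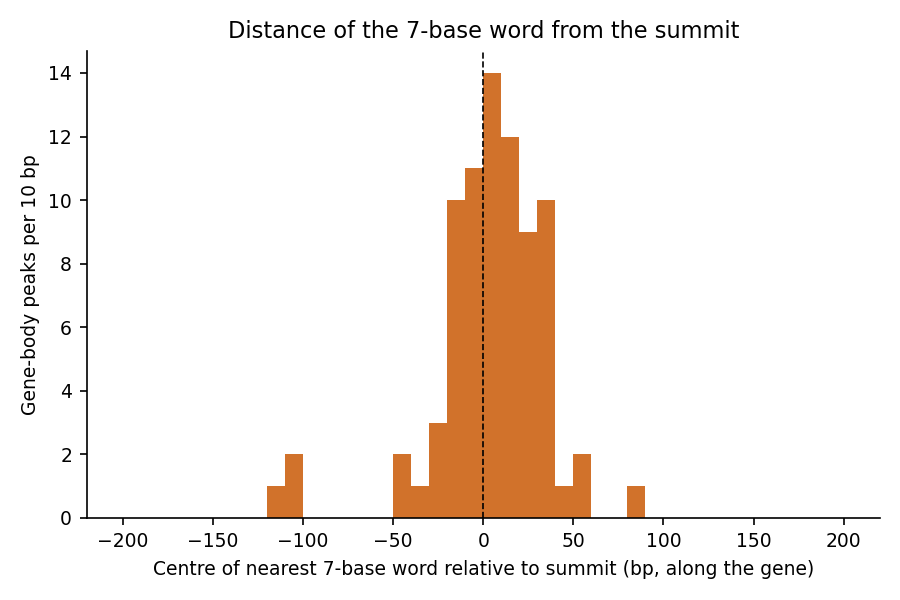
The x axis is the distance in bp from the replicate 2 summit to the centre of the nearest copy of the 7-base word, along the gene, and the y axis the number of gene-body peaks per 10 bp, for the 79 peaks with the word in their start window. 57 of the 79 lie within 25 bp of the summit and 73 within 50 bp.

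TTCG separated these sites less from other CpG-rich starts. It occurred in the windows of 106 of the 149 gene-body peaks (71.1%, Wilson interval 63.4 to 77.8), against 44.9% of all windows and 63.0% of windows without a peak that hold at least 10 CpG. Within 50 bp either side of the summit, which the table covers in full for 127 peaks, TTCG was present at 44 (34.6%, interval 26.9 to 43.3). Stretches of the same length in all windows had it in 18.4% and those of CpG-rich windows without a peak in 27.0%. Over the same stretch CCGGAAG was present at 61 of 127 (48.0%), against 5.08% and 5.13%.

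Peaks with the 7-base word had the higher median in replicate 2 and were more often found in replicate 1. The strongest peaks in these windows did not follow this. Tspan6 and Eif4g3, with fold enrichments of 31.4 and 28.5 in replicate 2, had no CCGGAAG in their window. The median fold enrichment in replicate 2 was 8.11 (quartiles 6.51 and 9.73) for the 79 with the word and 6.15 (5.18 and 8.01) for the 70 without, and 73.4% and 51.4% overlapped a replicate 1 peak. Fold enrichment is the height of the ChIP signal at the summit over the background expected there, as the authors' peak caller gave it. Among the shared ones, replicate 1 did not show the difference, with medians of 7.50 over 58 peaks with the word and 7.67 over 36 without. No test was run here or between the classes below, since the 2 ChIP libraries form 1 group and the peaks of a library are not replicates.

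Of 181 host genes with a gene-body peak at a start of their own, 154 had no replicate 2 peak within 1 kb of that outer end and 27 had one. The table lists a start within 50 bp of that outer end at only 31 of these genes, 26 of them without a peak there, and 106 of the 181 have a single listed start, the bound one. The other 150 outer ends are ends of the gene span that the table does not list as starts. The summits at own starts lay a median of 2821.5 bp inside the gene (quartiles 1569.5 and 7525 bp), and 42 peaks were more than 10 kb inside. At 33 genes the table lists a further start with no peak of either replicate within 1 kb, 39 starts in all. These peak-free starts had CCGGAAG in 5 of 39 windows (12.8%, Wilson interval 5.60 to 26.7), and the peak-holding starts of the same genes in 18 of 33 (54.5%, interval 38.0 to 70.2). Median CpG numbers were 9 and 22, so the compared starts differ in CpG content as well. CGGAA was present in 35.9% and 93.9%.

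The 4 such genes with the largest mean fold enrichment, chosen as for the sequences above, show the contrast between the starts of a single gene. The peak-holding start of Psma6 is printed above, and the other lines again give the 100 bases before each start with CGGAA or TTCCG in capitals.
Psma6 start without a peak, chr12:55384122-55384221, plus strand: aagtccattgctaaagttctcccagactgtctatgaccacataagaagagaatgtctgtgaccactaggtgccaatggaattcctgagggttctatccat
Smn1 start with a peak, chr13:100124755-100124854, plus strand: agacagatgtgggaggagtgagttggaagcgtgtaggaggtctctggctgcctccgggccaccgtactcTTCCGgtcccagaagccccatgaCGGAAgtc
Smn1 start without a peak, chr13:100123105-100123204, plus strand: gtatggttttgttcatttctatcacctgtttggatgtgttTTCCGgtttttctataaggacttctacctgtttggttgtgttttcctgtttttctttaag
Ccdc71 start with a peak, chr9:108460453-108460552, plus strand: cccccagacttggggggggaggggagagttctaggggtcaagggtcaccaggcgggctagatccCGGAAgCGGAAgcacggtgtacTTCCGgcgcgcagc
Ccdc71 start without a peak, chr9:108452402-108452501, plus strand: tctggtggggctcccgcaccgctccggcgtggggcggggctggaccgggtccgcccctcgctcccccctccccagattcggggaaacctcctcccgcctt
Arhgef7 start with a peak, chr8:11758265-11758364, plus strand: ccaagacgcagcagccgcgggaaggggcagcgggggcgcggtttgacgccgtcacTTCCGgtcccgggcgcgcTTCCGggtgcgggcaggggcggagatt
Arhgef7 start without a peak, chr8:11727958-11728057, plus strand: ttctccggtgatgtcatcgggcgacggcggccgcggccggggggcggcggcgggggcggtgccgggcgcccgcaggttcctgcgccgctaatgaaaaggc

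Smn1 encodes the survival motor neuron protein of spliceosome assembly, and Arhgef7 a guanine nucleotide exchange factor for small GTPases. The peak-holding stretches of Smn1, Ccdc71 and Arhgef7 have 2, 3 and 2 copies of CGGAA or TTCCG. The peak-free stretches have 1 at Smn1 and 0 at Psma6, Ccdc71 and Arhgef7. The peak-free start has more CpG in its 100 bases than the start with a peak at Arhgef7 (17 and 15) and Ccdc71 (10 and 7). It has fewer at Psma6 (0 and 8) and Smn1 (1 and 5).

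**Figure D2:**
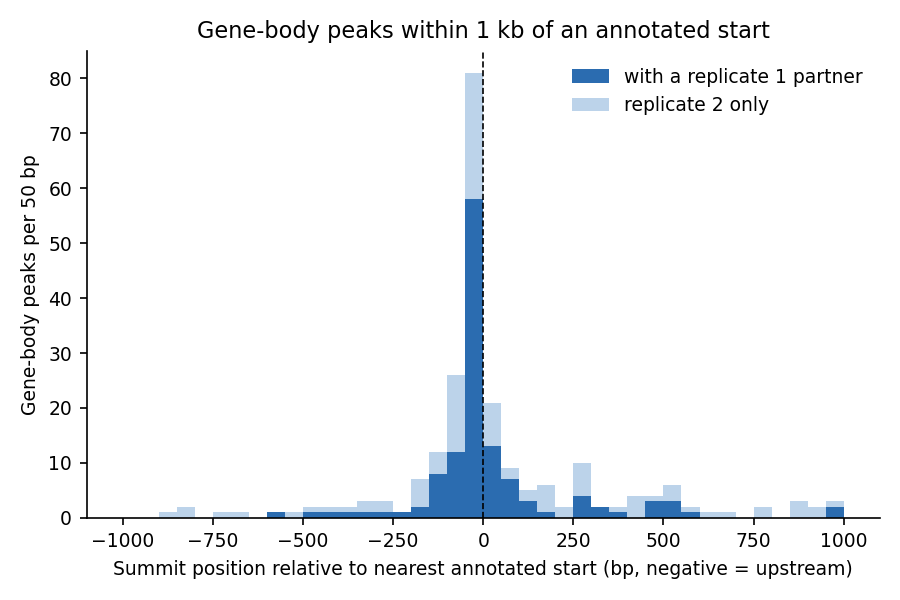
The x axis is the position of the summit relative to the nearest annotated start in bp, negative values being upstream, and the y axis the number of gene-body peaks per 50 bp, stacked for the 127 with a replicate 1 partner and the 104 seen only in replicate 2. The summits gather just upstream of the start, with a median at −19 bp.

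Replicate 1 supplied a partner, a peak overlapping by at least 1 bp, for 220 of the 583 gene-body peaks (37.7%, Wilson interval 33.9 to 41.7). Over all 2950 peaks the share was 52.0%, for gene-end peaks 58.3% (56.2 to 60.4) and for peaks between genes 31.0% (25.4 to 37.1). The share split by position within the gene body. At an annotated start 127 of 231 had a partner (55.0%, 48.5 to 61.3), and without a listed start 93 of 352 (26.4%, 22.1 to 31.3). Among the latter the share was 23.3% over 223 peaks whose host gene is in the start table and 31.8% over 129 whose host is not. Counted from the shorter list of replicate 1, the shares with a replicate 2 partner were much closer, 95.8% at a start and 88.5% without a listed start, with 92.7% at gene ends and 88.3% between genes.

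Fold enrichment split in the same way in both libraries. In replicate 2 the median was 5.50 for gene-body peaks (quartiles 4.61 and 7.45), 6.86 for gene-end peaks, 5.38 for peaks between genes and 6.48 for all peaks. Within the gene body it was 6.64 at a start and 5.18 without a listed start, the same in the 223 and the 129. The same position rule applied to replicate 1's own list gave 316 gene-body peaks with a median of 6.34, made up of 142 at a start with a median of 7.39 and 174 without a listed start with a median of 5.69. The difference between the medians of these 2 classes was 1.70 in replicate 1 and 1.46 in replicate 2, a mean of 1.58 ± 0.17 (SD, n = 2). Medians at a start were near those of gene-end peaks (7.20 and 6.86), and medians without a listed start near those of peaks between genes (5.71 and 5.38).

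**Figure D3:**
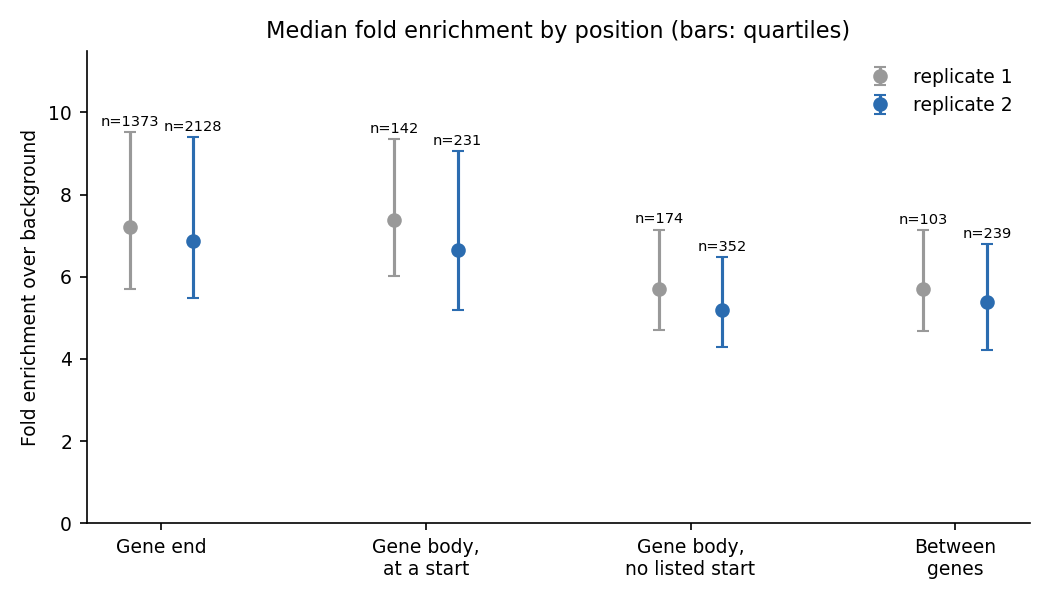
Points are median fold enrichments over background and bars the quartiles, for gene-end peaks, gene-body peaks at a start, gene-body peaks without a listed start and peaks between genes, in replicate 1 (grey) and replicate 2 (blue), with the number of peaks above each bar. Gene-body peaks at a start have medians of 7.39 and 6.64, and those without a listed start 5.69 and 5.18.

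Summit depth sets the precision of single peaks. The number of fragments stacked at a summit was recovered from the deposited fold and p. The median was 19 fragments over gene-body peaks, 23 at starts and 17 without a listed start, against 25 at gene ends. Gene-body peaks with a partner had a median of 29 fragments and a median fold enrichment of 8.06, and those without had 16 fragments and 5.12. The genome-wide background was 1.80 fragments in replicate 1 and 2.09 in replicate 2. Gene-body peaks had a local background over 5% above that level at 305 of 583 summits (52.3%), against 54.0% of all peaks. In the authors' combined list, which scores how well a region repeats between replicates, 69 gene-body peaks (11.8%) lay in a region with a score of at least 540, equal to an irreproducible discovery rate of 0.05, against 20.5% of all peaks. Of these 69, 46 were at a start.

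Just inside the limit of 1 kb, the 10 gene-body peaks 1001 to 1056 bp from a gene end had fold enrichments of 3.09 to 12.6 with a median of 6.69, and 7 had a partner. The 10 gene-end peaks just outside it, at 945 to 996 bp, had 3.61 to 30.8 with a median of 4.99, and 3 had a partner.

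Across the 213 pairs in which each gene-body peak and its replicate 1 peak were each other's strongest partner, log2 fold enrichments of the replicates were correlated with r = 0.76 (Pearson) and rho = 0.66 (Spearman). This is a description across peaks that share the 2 libraries, and peaks are not independent. The median log2 ratio of replicate 2 over replicate 1 was 0.19 with an SD of 0.45, and replicate 2 was higher at 149 pairs (70.0%). The ratios ran from −0.95 to 1.58. The gene-end pairs, 1229 in number, had a median of 0.18 and an SD of 0.53.

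**Figure D4:**
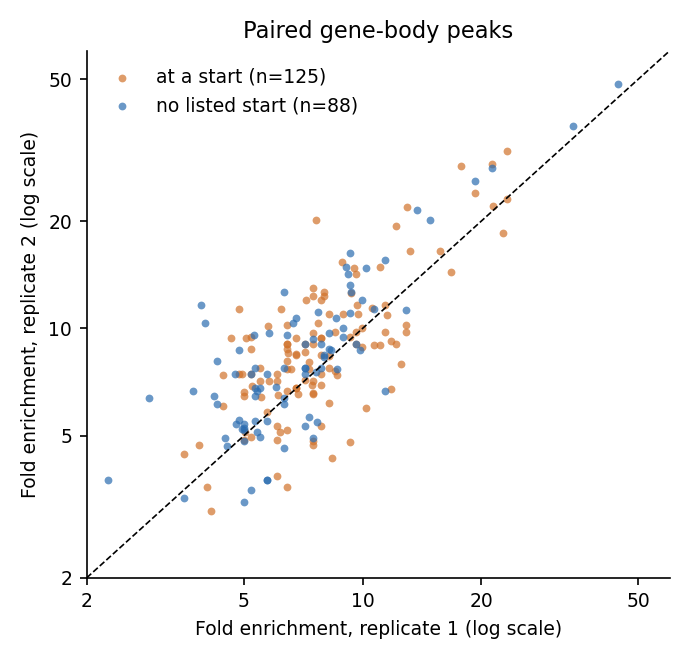
Each point is 1 of the 213 paired gene-body peaks, with its fold enrichment in replicate 1 on the x axis and in replicate 2 on the y axis, both on log scales, coloured by whether the summit was within 1 kb of an annotated start (125) or had no listed start (88). The dashed line marks equal values, and 149 points lie above it.

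The strongest gene-body peak was inside Extl3, which encodes a glycosyltransferase of heparan sulfate synthesis. It spanned chr14:65096273-65099453 with its summit 46098 bp from the nearer gene end, and had a fold enrichment of 44.3 in replicate 1 and 48.6 in replicate 2. The second was inside Pex2, whose product is part of the ubiquitin ligase of peroxisomal protein import. It lay at chr3:5574658-5577983, 2418 bp from a gene end, with 34.1 and 36.9. The start table holds no start of Extl3 or Pex2, so a start at these summits cannot be told from its absence. Both libraries put Extl3 first and Pex2 second, with the values of the 2 genes apart by more than the replicates of either differ. In the authors' combined list both peaks were nevertheless below the repeatability limit used above, with scores of 190 and 191.

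At internal starts, the strongest gene-body peak was in Tspan6, a tetraspanin gene. At chrX:133897207-133898539 it had fold enrichments of 23.2 and 31.4, with 64 fragments in replicate 1 and 96 in replicate 2 (95% exact Poisson intervals 49.3 to 81.7 and 77.8 to 117), and its summit was on the annotated start itself. The neuronal splicing regulator Ptbp2 had 21.3 and 28.8 with its summit 64 bp downstream of a start and 1323 bp inside its span. The summit at Eif4g3 was 44 bp upstream of its start, with 17.7 and 28.5. Usp34, a deubiquitinase, had 23.2 and 23.0. The microtubule linker Clip2 had 19.3 and 24.0, and Bclaf1, a regulator of transcription and RNA processing, 21.4 and 22.0. At Egr2, an early growth response zinc-finger factor, replicate 1 was the higher, with 22.7 against 18.5. The proteasome core subunit Psma6 had 12.9 and 21.9 at a summit 14587 bp inside its span, and the receptor phosphatase Ptprs 15.7 and 16.5. Replicate 2 was thus the higher library at 7 of these 9 genes.

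Without a listed start, other strong peaks were as follows. Rbfox2, a splicing regulator, had 21.3 and 28.2 at a summit 1322 bp from a gene end. Dab2ip, a Ras GTPase-activating protein gene, had 19.3 and 25.9 at a summit 69782 bp from the nearer gene end. Impact, which encodes an inhibitor of the stress kinase Gcn2, had 14.9 and 20.1. The start table holds Dab2ip but no start of Rbfox2 or Impact, so a start at the summits of these 2 cannot be told from its absence. Among all gene-body peaks without a partner, at a start or not, the highest folds were lower. They were 10.7 at Tnrc6a, a gene of microRNA silencing, then 9.71 at Synj1, 9.39 at Ski, 8.98 at Acin1 and 8.74 at Ssc5d. Those at Tnrc6a, Synj1 and Acin1 lay within 1 kb of an annotated start.

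Large differences in fold enrichment between the libraries occurred at a few paired peaks. Replicate 2 exceeded replicate 1 most at Ski (3.89 and 11.7 in replicates 1 and 2), the ESCRT gene Vps25 (7.60 and 20.1), a second peak of Extl3 (3.99 and 10.4), Arhgef7 (4.87 and 11.3) and a second peak of Pex2 (2.87 and 6.39). Replicate 1 exceeded replicate 2 most at the acetyltransferase gene Kat5 (8.37 and 4.33), the aminoacyl-tRNA synthetase gene Eprs (9.28 and 4.80), the kinase gene Map2k5 (6.42 and 3.60), the mitochondrial translation factor gene Mtif2 (11.8 and 6.76) and Gm20783 (11.4 and 6.68). At all 5 of these genes the summit held more fragments in replicate 2, such as 31 and 41 at Kat5 and 32 and 45 at Mtif2. The same held for 60 of the 64 pairs with the higher fold in replicate 1, so a higher fold there did not go with a higher pileup. Local background differed too. At the 5 peaks named for a higher fold in replicate 2 it was higher in replicate 1. Ski had 4.39 and 2.09 fragments in replicates 1 and 2, and Pex2 5.27 and 2.60. At the 5 named for a higher fold in replicate 1 it was higher in replicate 2, with 2.82 and 8.70 at Kat5 and 1.80 and 5.80 at Mtif2. The source of these differences was not tested.

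Peaks without a listed start were gathered around other peaks, a measure defined after seeing the data. When replicate 2 peaks of any class with gaps of at most 20 kb were joined into runs, 258 of the 352 peaks without a listed start (73.3%) fell in runs of 5 or more peaks, against 38 of the 231 at a start (16.5%), 157 of the 2128 gene-end peaks (7.38%) and 18.9% of all peaks. The share was 77.6% over the 223 whose host gene is in the start table and 65.9% over the 129 whose host is not. Leaving aside the 100 strongest peaks of these chromosomes, those with a fold enrichment of at least 16.7, 190 of 346 gene-body peaks without a listed start (54.9%) lay within 20 kb of such a peak, 59.5% of those with a host in the table and 46.8% of the others. The share was 12.7% at a start, 4.59% at gene ends and 35.0% between genes. Of the peaks without a listed start, 94 were outside these runs, and their median fold enrichment of 5.35 was close to the 5.18 of those inside. Of the 94, 21 had a partner (22.3%).

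Extl3 held the most gene-body peaks, 26, of which 12 had a partner. Its densest run covered 44.2 kb with 23 replicate 2 peaks, all gene-body peaks, and 16 replicate 1 peaks. Apart from the strongest, the peaks were small, and the run's median fold enrichment was 5.18. The longest run held 35 replicate 2 peaks over 89.0 kb of chromosome 11 across Cdc27, an anaphase-promoting complex gene, the myosin light chain gene Myl4 and the integrin gene Itgb3. Its 26 gene-body peaks had fold enrichments of 2.57 to 6.92, and 2 of them had a partner. A run at Mark2 and Rcor2 on chromosome 19 had 17 gene-body peaks with 2 partners, and one at Mast3, Pik3r2 and Il12rb1 on chromosome 8 had 15 with 3. The muscle gene Myl4 thus held 13 gene-body peaks, all between 2.57 and 6.92, and the strongest peak of its run, with 24.7, was not a gene-body peak.

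**Figure D5:**
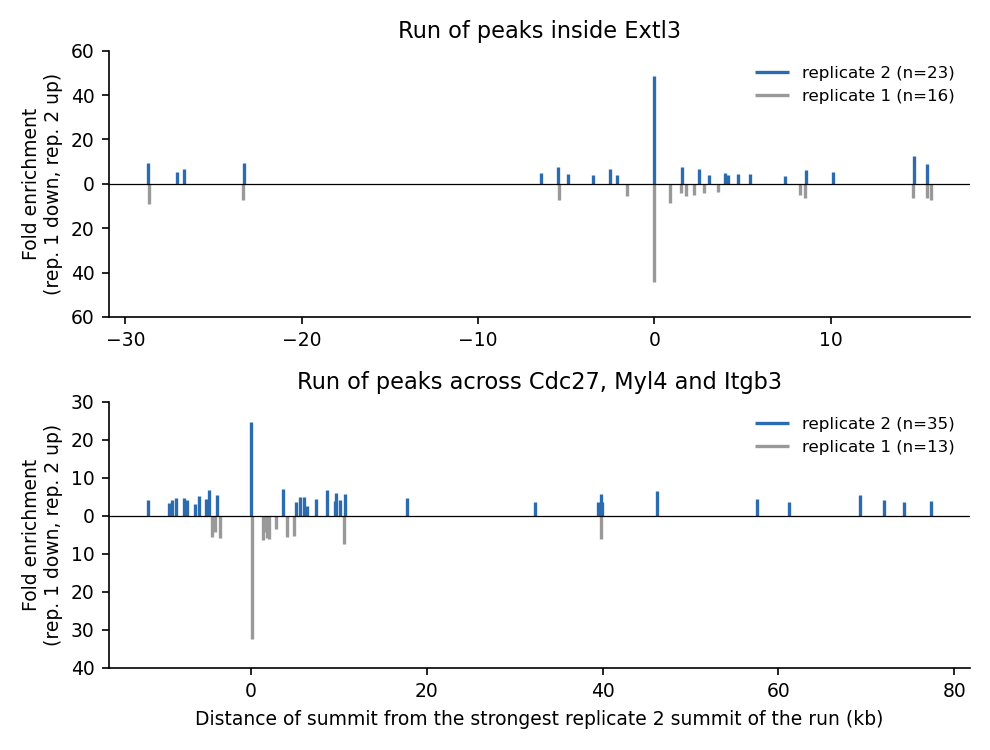
Vertical lines are peaks at their distance in kb from the strongest replicate 2 summit of the run, with fold enrichment drawn upwards for replicate 2 (blue) and downwards for replicate 1 (grey), for the run inside Extl3 and the run across Cdc27, Myl4 and Itgb3. In both runs 1 tall peak repeats between replicates among many short ones, 23 replicate 2 and 16 replicate 1 peaks at Extl3 and 35 and 13 across Myl4.

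The 583 gene-body peaks fell in 334 host genes, 1.74% of the 19190 protein-coding genes longer than 2 kb. Of these hosts, 253 had 1 peak, 81 had 2 or more and 33 had 4 or more, and 15 peaks lay in the span of several genes. The hosts had a median length of 30.4 kb, against 21.3 kb over all genes longer than 2 kb. After Extl3, the hosts with most peaks were Mark2 with 15, Ski and Myl4 with 13 each, and Deaf1, Trio and Morn1 with 10 each. Mast3 had 9, and Acin1 and Cdc27 had 8. Creb1 and Dab2ip had 7, and Egr2, Mettl21a, Mta2, Tmprss6 and Zc3h4 had 6. Ano6, C1qtnf6, Impact, Itgb3, Pex2, Rbfox2, Sstr3 and Tada1 had 5. Eif4g3, Gsk3b, Kctd17, Samd15, Tle5, Tmed8, Tmem80 and Tspan6 had 4.

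These multi-peak genes differed in how far their peaks repeated. Pex2 had a partner for 4 of 5 peaks and Tmprss6 for 5 of 6, whereas Cdc27 had none for 8, Itgb3 none for 5 and Gsk3b, a kinase of WNT and insulin signalling, none for 4. The 10 peaks of the protein kinase and exchange factor gene Trio were spread over 119 kb, and 5 had a partner. All 4 peaks of Tspan6 were within 1 kb of an annotated start.

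Genes of the autophagy list rarely held a gene-body peak: 1 of 54 long enough to hold one (1.85%), near the 1.74% of all such genes. That gene was Pik3c3, the catalytic subunit of the class III phosphatidylinositol 3-kinase that starts autophagosome formation. Its single gene-body peak at chr18:30272655-30272926 had fold enrichments of 9.30 and 13.3 in replicates 1 and 2, with 41 and 48 fragments. The start table holds no start of Pik3c3, so a start at this summit cannot be told from its absence. Of 56 myogenic regulators and muscle structure genes long enough, 0 held one, beside the 1.74% of all such genes. Myl4 and the tropomyosin gene Tpm3, which held gene-body peaks, were not on that list.

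Deaf1's own gene held 10 gene-body peaks, all without a listed start within 1 kb although the table holds the gene, with replicate 2 folds of 3.77 to 7.77 and a median of 5.50, and 4 had a partner. Of the 10, 4 also lie in the span of Tmem80. Deaf1 and Eif4g3 were the 2 of 18 genes (11.1%) with a gene-body peak on the list named Deaf1 relatives and partners. This share counts Deaf1's own gene, and nothing in these data shows Eif4g3 to be a relative or partner. The other 3 peaks of Eif4g3, beside the strong one, had 3.08 to 5.83 in replicate 2 and no partner.

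In insulin, PI3K, mTOR and FOXO signalling, 2 of 45 genes (4.44%) held a gene-body peak. The PI3K regulatory subunit gene Pik3r2 had peaks with folds of 9.28 and 11.0 and of 12.8 and 11.3 in replicates 1 and 2. The Akt-activating kinase gene Pdpk1 had 4.87 and 7.43 at a start, with its summit 13923 bp inside its span. Among TGF-beta, BMP and WNT genes 3 of 50 did. The BMP receptor gene Bmpr1a had 6.07 and 4.87 at one summit and 5.00 and 6.64 at another. Ski, a repressor of TGF-beta signalling, had 4 peaks with a partner among its 13, with means over the replicates of 7.74 to 9.62. Gsk3b was the third.

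Chromatin modifiers had 5 of 86 genes (5.81%). The acetyltransferase gene Kat5 had 2 peaks with a partner, the weaker with 4.03 and 3.60, while Crebbp, Hdac7, Chd2 and Ino80 had gene-body peaks in replicate 2 only. The comparison list of proteasome genes had 2 of 32 (6.25%), Psma6 and Psmc2, both at an internal start. It leaves out Psmf1, with a gene-body peak at a start. It also leaves out the proteasome subunit gene Psmb10, whose gene-body peak had no listed start, 5.18 in replicate 2 and no partner. Psmc2, an ATPase subunit of the proteasome's regulatory particle, had 9.64 and 14.2. No test of a list was run against the 1.74% background.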

How the data were processed

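Reads were checked with FastQC 0.11.8, aligned with BWA 0.7.17-r1198 and given to the peak caller MACS2 2.1.2 on mm10, per the submitters' processing notes. How the inputs and duplicate reads were handled is not given in the sources used here. For each ChIP replicate the authors deposited 1 peak list, with a fold enrichment (a ratio over background) at each summit. The authors' lists also hold −log10 p and −log10 q values. The authors' deposited combined list of 1550 regions gives a repeatability score for the pair of replicates. Its 6 per-sample columns without names were not used.

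The number of fragments and the background at each summit were solved from the fold and p (replicate 1: 1860 peaks, replicate 2: 3126), after a check on simulated peaks. Read depth is not given by peak lists. Gene spans and start windows came from RefSeq tables of GRCm38.p6, the same assembly as mm10. Protein-coding genes gave the position classes. No genome was used, so TTCG was searched only where the start table covers the summit, which differs from the plan. Shares have 95% Wilson intervals and pileups exact Poisson intervals, for counting error only. The 2 ChIP samples form 1 group, so no test was made.

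The named peaks are the 15 strongest shared ones (1 per gene), the 5 strongest unshared, genes with 4 or more, genes of 7 lists with a shared peak, Deaf1, Pik3c3 and Eif4g3, and the 5 largest and 5 smallest replicate ratios. A peak that this rule names is not reported here. The members and lists were chosen with earlier results of these data known. Other genes were named for their sequences or lists after their values were seen. Alternatives changed the margin, overlap, q, start distance, block and window. Scripts used Python 3.11.15, pandas 2.3.3, numpy 2.4.6 and scipy 1.17.1.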

Additional observations from a re-analysis of the deposited data

How the results depend on the processing

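Of 74 alternative values, 41 stayed within the limit set for each result and 33 moved. The limit was a fixed factor for counts, the Wilson interval for shares and the SD over pairs for the log2 ratio. For median fold, median pileup and the gene-body minus gene-end difference it was the SD of the 2 replicates. Median fold and that difference therefore moved without replicate 2 by construction. Median pileup was 19 in both replicates, so any other value counted as moved. Only the gene-body minus gene-end difference and the log2 ratio between replicates have a direction that could change, and 0 of their values did. Counts, shares, median fold and pileup could not change direction. The number of gene-body peaks fell to 231 with a margin of 5 kb, and the number of host genes to 217 at 2 kb and 114 at 5 kb. Genes of the 7 lists with a gene-body peak fell from 15 to 8 at 5 kb. The share at a start was 46.1%, 33.3% and 29.4% with margins of 500 bp, 2 kb and 5 kb, 47.6% with a −log10 q of at least 5, 33.1% with the chromosome 10 block kept, 35.0% and 48.0% with a start within 500 bp and 2 kb, and 50.3% over hosts in the start table only, an alternative chosen after seeing the data. The share overlapping a replicate 1 peak was 33.3% at 5 kb, 44.4% with the q limit, 26.6% with reciprocal overlap of at least 50% and 33.4% with summits within 100 bp. The median fold enrichment was 6.51 with the q limit, and the gene-body minus gene-end difference in replicate 2, −1.36, was −0.886 at 5 kb and −0.922 with the q limit. Median pileup was 20 at 500 bp, 23 with the q limit and 18 with the block. TTCG was present at 19.3% of 145 peaks within 25 bp of the summit and 53.8% of the 39 that the table covers to 100 bp. CpG-rich windows without a peak had it in 14.04% and 48.4%, and all windows in 9.32% and 33.2%. The cause of these shifts was not tested.

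Without replicate 2, the list of replicate 1 gave 316 gene-body peaks in 197 genes, 91.8% overlapping a replicate 2 peak, a median fold of 6.34, a difference of −0.861, 44.9% at a start, 13 list genes and a median pileup of 19. Leaving out replicate 1 leaves these peaks as they are. No paired analysis was possible because the ChIP samples form 1 group and the inputs have no peaks. A pileup of 10 to 20 fragments limits single weak peaks, and 363 gene-body peaks had no partner.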

Other observations

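Replicate 1 had 26 gene-body peaks with no replicate 2 partner, with fold enrichments of 3.58 to 7.50 and a median of 5.00, and 6 of them were at an annotated start. The chromosome 10 block that was left out held 130 replicate 2 peaks of the gene-body class, of which 30 overlapped a replicate 1 peak and 5 were at a start. Their median fold enrichment was 4.93 and the highest 27.9. Within 1 kb of the end of a non-coding gene there were 54 gene-body peaks, and 19 of these were not at an annotated start. Among the 223 peaks without a listed start whose host gene is in the start table, 106 lay in the first of 4 equal stretches of the gene counted from its 5′ end, and 50, 40 and 27 in the stretches that follow.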
